A study of Mus musculus with 20 samples.

Results

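The genes described here are Gzma, Prf1, Nkg7, Ncr1, Klrb1c, Klrk1, Eomes and Xcl1, which mark natural killer (NK) cells and other cytotoxic lymphocytes. They were taken by gene name and are 8 of the 54532 genes in the deposited count tables. Each of the 8 had counts in both the tissue table and the sorted-cell table.

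Bulk RNA-Sequencing covered 14 tissue libraries and 6 libraries of sorted cells from wild-type C57BL/6 mice, an inbred strain, whose sex the tissue labels give as male and the methods as female, at 6–8 weeks of age. Liver of mice given normal saline, taken at day 0 (con, 2 libraries), was set against liver with colorectal liver metastasis (CRLM) grown from 1000000 Mc38 cells, a colon adenocarcinoma line, injected through the spleen into the portal vein. The CRLM samples held a low tumor content at 9 dpi (days post injection; Lt, 2 libraries), a medium content at 9 dpi (Mt3, 2) and 11 dpi (Mt2 and Mt1, 2 each) or a high content at 12 dpi (Ht, 3), and 1 library came from tumor-free liver of a 12 dpi mouse (L-con). F4/80+ cells and CD11b+ cells (3 libraries each, no sex given) were taken from Mt2 metastases by magnetic microbeads, and all groups were wild type. By the methods, 2 livers were prepared for each tissue group but L-con. Tumor content and day differ together between most groups, so their parts in a difference cannot be told apart.

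NK cells are innate lymphocytes that are abundant in normal mouse liver. They kill target cells by releasing granules that hold perforin and granzymes, and they read the balance of activating and inhibitory receptors before they do so. CD8 T cells use the same granule proteins and share several of the receptors, so most of these genes mark a way of working rather than a single cell type.

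The libraries held from 16032085 to 20548370 counts, and levels are given in CPM (counts per 1000000 counts of a library), TMM-normalized so that most genes match between libraries. On that scale 3 counts in a library lay at 0.248 to 0.265 CPM in con, at 0.0559 to 0.104 CPM in Ht and at 0.121 to 0.215 CPM in the other groups compared. The counts of Ht replicates 1 and 3, identical by the methods, were added up, leaving Ht with 2 samples. Alb, serum albumin, a hepatocyte RNA, lay at 108749 to 129444 CPM in con, at 49744 to 98772 CPM in Lt, at 11692 to 81569 CPM in Mt, which overlapped Lt, and at 1626 to 2497 CPM in Ht. Ptprc, the leukocyte antigen CD45, went the other way, from 10.2 to 18.6 CPM in con to 88.0 to 112 CPM in Ht, and the 10 macrophage markers together reached 13875 to 21876 CPM in the sorted libraries. In bulk tissue, fewer cells of a type and less RNA per cell cannot be told apart.

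The promoters of the 8 genes were set side by side because most of the genes rose together from con to Ht. All 8 had an entry in the RefSeq table of start sites (GRCm38.p6), each holding 250 bases before and 50 after the start. A Runx motif (TGTGGT or its reverse complement ACCACA), the core bound by Runx factors such as Runx3, was present in the promoters of 7 of the 8 genes, all but Eomes, against 18.9% of the 27025 genes and 16.8% of the 32851 promoters in the table. A T-box motif (TCACACC or GGTGTGA), of the kind bound by Eomes itself and by T-bet, was present in those of Nkg7 and Xcl1, against 4.60% of all genes and 3.98% of all promoters. Both searches were on either strand, the motifs did not overlap each other, and a match is only a match of letters. The sequences below are shown because they hold these matches, which are in capitals. They read along the strand of the gene. The longer ones stop at the start site or where an exon of the gene begins in GENCODE vM21. Ncr1 (chr7:4337465-4337714, plus strand), Nkg7 (chr7:43436888-43437072, plus), Klrk1 (chr6:129623865-129624114, minus) and Xcl1 (chr1:164935528-164935772, minus) are given at length, and Gzma (chr13:113101014-113101043, minus), Prf1 (chr10:61297694-61297723, plus) and Klrb1c (chr6:128788713-128788742, minus) by 30 bases around the match.
Ncr1: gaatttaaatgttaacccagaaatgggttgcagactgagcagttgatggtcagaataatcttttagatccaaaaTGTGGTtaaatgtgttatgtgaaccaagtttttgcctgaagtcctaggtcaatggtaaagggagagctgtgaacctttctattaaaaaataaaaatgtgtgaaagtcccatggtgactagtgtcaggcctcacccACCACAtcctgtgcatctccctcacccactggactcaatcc
Nkg7: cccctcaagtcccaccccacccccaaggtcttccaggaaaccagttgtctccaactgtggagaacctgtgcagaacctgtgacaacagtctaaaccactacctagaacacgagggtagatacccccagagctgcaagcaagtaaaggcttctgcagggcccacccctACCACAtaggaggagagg
Klrk1: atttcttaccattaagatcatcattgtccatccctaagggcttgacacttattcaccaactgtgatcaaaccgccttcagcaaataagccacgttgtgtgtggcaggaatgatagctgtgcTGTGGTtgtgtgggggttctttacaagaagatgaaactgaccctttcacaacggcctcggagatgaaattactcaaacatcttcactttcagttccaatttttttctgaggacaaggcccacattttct
Xcl1: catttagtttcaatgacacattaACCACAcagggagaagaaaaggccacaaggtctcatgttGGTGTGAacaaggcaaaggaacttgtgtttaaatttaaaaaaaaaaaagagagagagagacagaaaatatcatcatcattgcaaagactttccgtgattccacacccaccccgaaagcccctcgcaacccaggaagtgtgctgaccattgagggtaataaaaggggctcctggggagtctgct
Gzma: gagaagaacaaaACCACAtcctttgcactc
Prf1: tgggaacctgtgACCACActctgggggcag
Klrb1c: aggaaggaaagcTGTGGTcatggtgttttg

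The matches were spread over the promoters. Counted from the first transcribed base at 0, the Runx matches of Ncr1 began at -41 and -176 from the upstream of its listed starts and at -50 and -185 from the other. Those of Gzma, Nkg7 and Klrb1c began at -50, -83 and -89. The Prf1 and Klrk1 matches began at -130 and -129, and that of Xcl1 at -227. The T-box match began at -188 in Xcl1 and at -13 in Nkg7, where it lies within an exon of the GENCODE model and is not printed. The Klrb1c match lies within an intron of the GENCODE model, whose start is farther upstream than that of RefSeq, and the others lie upstream of both models.

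**Figure D1:**
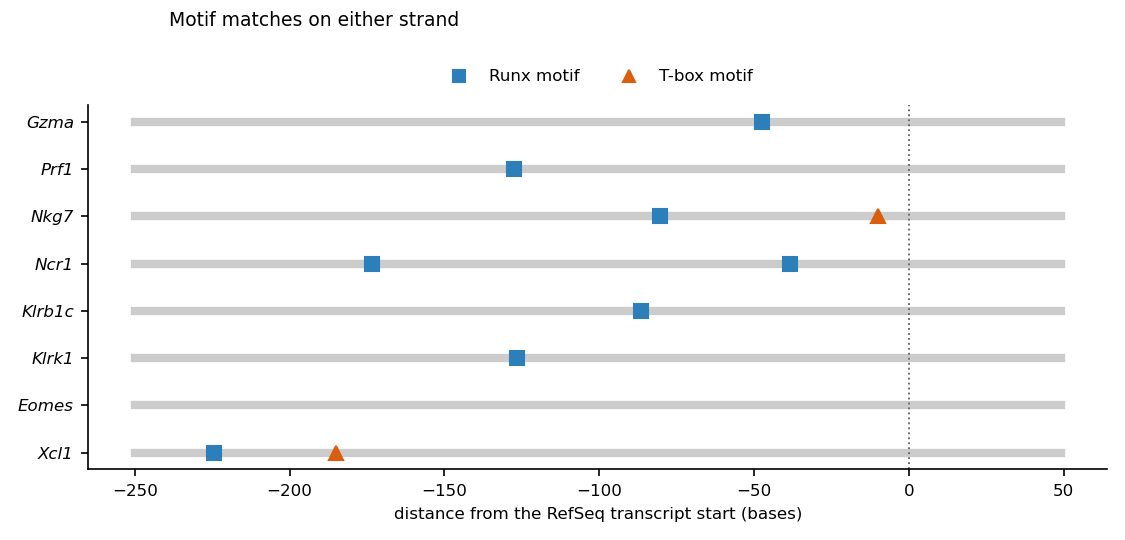
Positions of the Runx motif (squares) and the T-box motif (triangles), on either strand, in the promoters of the 8 genes, with the distance from the RefSeq transcript start in bases on the x axis. A square is present on 7 of the 8 lines, all but that of Eomes, and a triangle on those of Nkg7 and Xcl1; for Ncr1, which has more than 1 listed start, the farthest upstream start is drawn.

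Among the granule genes, Prf1 encodes perforin, which opens the membrane of the target cell. Prf1 lay at 0.354 and 0.165 CPM in con, where it had 4 and 2 counts, and at 0.859 and 2.72 CPM in Lt. It lay between 1.68 and 3.63 CPM in the 6 Mt libraries (median 2.66) and at 5.24 and 6.58 CPM in Ht. Each step in tumor content thus left the lower groups below the higher ones, apart from an overlap of Lt with Mt. Prf1 rose from con to Lt by 2.78 ± 0.78 (log2, SE; edgeR's adjusted p = 0.0447) and from con to Ht by 4.49 ± 0.75 (adjusted p = 0.000815). Since con held only 6 counts, the ratios of summed counts were 7.16 for Lt (95% counting interval 3.08 to 20.4) and 22.2 for Ht (10.1 to 60.9). Leaving out each replicate gave 1.72 to 3.38 for Lt and 4.04 to 5.11 for Ht. From Mt to Ht the difference was 1.15 ± 0.42 and did not pass (adjusted p = 0.0764), although the 2 Ht samples lay above all 6 Mt libraries.

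Gzma, which encodes granzyme A, a protease of the same granules, was the exception among the 8 genes. The con libraries stood far apart, with 120 counts (10.6 CPM) in replicate 1 and 5 counts (0.413 CPM) in replicate 2. Lt gave 1.5 and 8.67 CPM, Mt 1.54 to 8.45 CPM (median 4.48), and Ht 6.56 and 5.74 CPM, all inside the range of con. The log2 difference from con to Ht was 0.16 ± 1.16 (adjusted p = 0.909). It was 3.88 without con replicate 1 and -0.79 without con replicate 2, with no call in either, so that the value rested on which con library was kept. Con replicate 1 also had more T-cell RNA: the 14 T-cell markers summed to 17.6 CPM in it and to 4.63 CPM in con replicate 2, with none of the 14 at 0 in both, and Cd3e, a subunit of the T-cell receptor complex, had 25 counts against 3. The part of those cells in the Gzma level of con was not tested.

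Nkg7, a protein of the granule membrane, had 21 and 5 counts in con (1.86 and 0.413 CPM). It lay at 2.15 and 7.37 CPM in Lt, at 3.35 to 6.79 CPM in Mt and at 5.65 and 7.55 CPM in Ht. Every CRLM library was therefore above both con libraries, while the CRLM groups overlapped one another. Nkg7 rose from con to Ht by 2.54 ± 0.75 (adjusted p = 0.0151), a call lost without con replicate 2 (1.82, adjusted p = 0.0956) or without Ht replicate 2 (2.32, adjusted p = 0.0556). The difference from con to Lt was 2.08 ± 0.76 (adjusted p = 0.108).

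Of the receptors, Ncr1 encodes NKp46, an activating receptor found on NK cells and related innate lymphocytes. It had 2 counts in each con library. Lt gave 0.573 and 2.59 CPM, Mt 0.463 to 2.00 CPM, and Ht 2.89 and 2.47 CPM. Both Ht samples lay above every Mt library, whereas Lt and Mt spanned about the same range. Ncr1 rose from con to Ht by 3.92 ± 0.98 (adjusted p = 0.00665), with a ratio of summed counts of 16 (6.18 to 59.4). The difference from con to Lt was 3.17 ± 1.02 (adjusted p = 0.0704).

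Klrb1c encodes NK1.1, the receptor used to stain NK cells in C57BL/6 mice. It had 6 and 4 counts in con (0.531 and 0.331 CPM), and lay at 0.645 and 1.88 CPM in Lt, at 0.869 to 2.86 CPM in Mt and at 3.67 and 3.79 CPM in Ht. The groups did not overlap between con and Lt or between Mt and Ht, and the Ht samples were close together. Klrb1c rose from con to Ht by 3.10 ± 0.72 (adjusted p = 0.00455). The differences from con to Lt (1.55 ± 0.76) and from Mt to Ht (0.90 ± 0.46) did not pass. Klrb1c belongs to a family of near-identical genes and shares 13.9% of its exon bases with Gm44511, to which no read was assigned, so that its counts are uncertain.

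Klrk1 encodes NKG2D, an activating receptor that binds stress-induced ligands and is shared by NK and CD8 T cells. In con it lay at 1.5 and 1.57 CPM (17 and 19 counts), in Lt at 6.02 and 12.8 CPM, in Mt at 5.90 to 12.2 CPM and in Ht at 6.37 and 10.2 CPM. All CRLM libraries lay above con, and the CRLM groups could not be ordered. Klrk1 rose from con to Lt by 2.61 ± 0.50 (adjusted p = 0.00933) and from con to Ht by 2.42 ± 0.50 (adjusted p = 0.00237). The former was 1.96 without Lt replicate 2. From Mt to Ht the difference was 0.00 ± 0.35.

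Eomes encodes a T-box transcription factor that mature NK cells and effector CD8 T cells express. It had 4 and 0 counts in con. The values were 0.788 and 3.95 CPM in Lt, 3.55 and 2.82 CPM in Mt3, 4.66 and 7.10 CPM in Mt2, 3.76 and 7.58 CPM in Mt1, and 11.3 and 11.1 CPM in Ht. Ht stood above all other tissue samples. By the methods the Ht samples were mostly tumor. The part of Mc38 cells in the level of Eomes, or of the other genes described here, was not tested. Eomes rose from con to Lt by 3.75 ± 1.05 (adjusted p = 0.0444) and from con to Ht by 5.98 ± 1.00 (adjusted p = 0.000814). With 4 counts in con, the ratios of summed counts were 14.3 (5.35 to 54.0) for Lt and 65.8 (25.6 to 242) for Ht. These values depended on single libraries: without con replicate 2 the log2 differences were 2.72 and 4.96, without Lt replicate 2 that of Lt was 2.16, and without con replicate 1 no count of Eomes was left in con. An antisense gene, Gm33460, shares 2.84% of the Eomes exon bases and had at most 20 counts in any library, and since the strand setting is not known its reads and those of Eomes cannot be told apart there. From Mt to Ht the difference was 1.24 ± 0.51 and did not pass (adjusted p = 0.101).

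Xcl1 encodes a chemokine by which NK cells and CD8 T cells attract dendritic cells that carry its receptor, Xcr1. No read fell on Xcl1 in either con library. Lt had 9 and 48 counts (0.645 and 3.10 CPM), Mt lay at 1.07 to 2.26 CPM, and Ht at 1.92 and 2.02 CPM. Xcl1 was thus present in all CRLM libraries, at levels that overlapped between the groups. It rose from con to Lt (adjusted p = 0.0129) and to Ht (adjusted p = 0.00233), and it was at least 15.1-fold higher in Lt and at least 15.2-fold higher in Ht. This bound and those below, for genes with 0 counts in con, set con at 3 counts over its 2 libraries together, a lower floor than 3 counts in each library. A transcript that overlaps 18.7% of the Xcl1 exon bases, Gm20743, had at most 6 counts in any library.

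**Figure D2:**
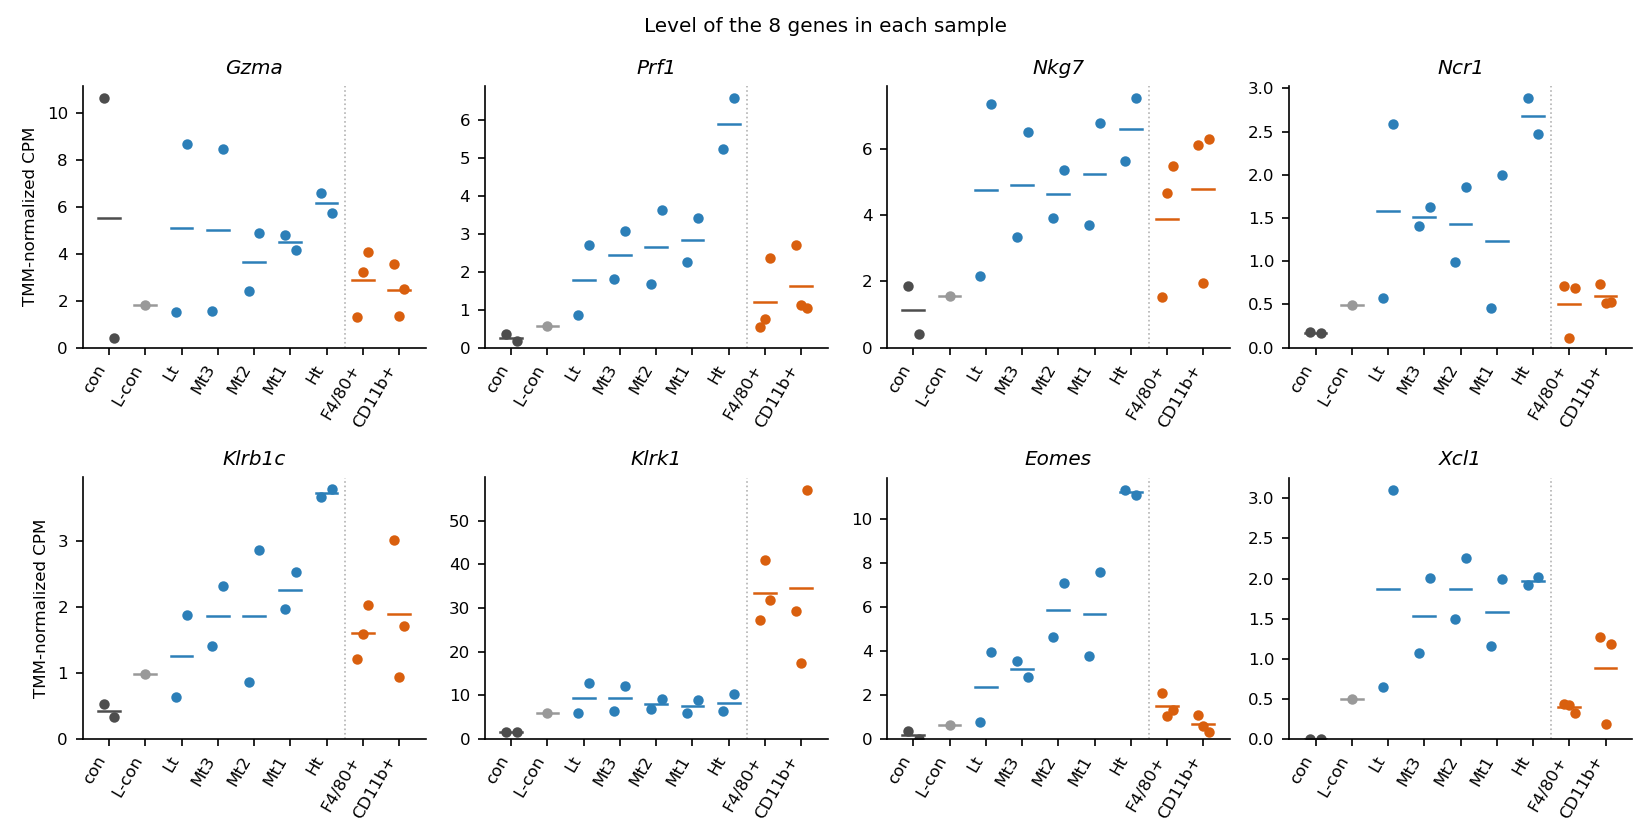
TMM-normalized CPM of each of the 8 genes (y axis, a scale of its own in each panel) in every sample of each group (x axis), with a point per sample and a bar at the group mean. Gray marks con and L-con, blue the CRLM tissue and orange the sorted cells, which were normalized separately from the tissue. Eomes, Prf1 and Klrb1c are highest in the 2 Ht samples among tissue, Ncr1 in Ht is above all Mt libraries but not above both Lt libraries, Klrk1 is level from Lt to Ht, and con replicate 1 has the highest Gzma value.

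From con to Lt, 4 of the 8 genes were called higher (Prf1, Klrk1, Eomes and Xcl1), where a gene is called if its adjusted p does not exceed 0.05 and its log2 fold change reaches 1 in either direction. Of all 17187 genes tested, 12.4% were called higher in this comparison. The median log2 fold change of the 8 genes was 2.69, also with Xcl1 at its bound, against 0.10 for all genes, and 7 of the 8 were higher in both Lt libraries than in either con library, as were 37.2% of all genes. The median was 2.56 for the 4 leukocyte markers, all called higher. Over the markers of single immune cell types the medians ran from 1.01 (macrophages) to 4.72 (monocytes). The calls depended on single libraries: 0 of the 8 were called without con replicate 1, without con replicate 2 or without Lt replicate 2, and 6 without Lt replicate 1. DESeq2 called 6. Lt replicate 2 was above Lt replicate 1 in all 8 genes, and it had 87.5 CPM of Ptprc against 37.7 and 49744 CPM of Alb against 98772. The same order held in Mt2, for 8 of the 8 genes, and in Mt3 and Mt1, for 7 of 8 each, with more Ptprc and less Alb in replicate 2 of each. In con, 1 of the 8 genes was higher in replicate 2, which had less Ptprc and less Alb. In Ht, 5 of 8 were higher in replicate 2, which had more Ptprc and more Alb. The part of the tissue composition in these levels was not tested.

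From Lt to Mt none of the 8 genes was called by edgeR, with 0 of them at an unadjusted p under 0.05 and 0 called by DESeq2. In this comparison 0% of all genes were called by edgeR, while 3282 had an unadjusted p under 0.05 and DESeq2 called 242. The largest difference among the 8 was that of Eomes, 0.99 ± 0.61, and the median was -0.06.

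From Mt to Ht again 0 of the 8 genes were called by edgeR, against 1.5% of all genes called higher and 13.4% called lower. Prf1 and Eomes had an unadjusted p under 0.05, and DESeq2 called 1, Prf1. All 8 differences were above 0, with a median of 0.70 against 0.00 for all genes, and 4 genes (Prf1, Ncr1, Klrb1c and Eomes) were higher in both Ht samples than in any Mt library, as were 18.7% of all genes. With Ht kept as 3 libraries 2 genes were called, Prf1 (1.10, adjusted p = 0.0356) and Eomes (1.24, adjusted p = 0.0397), and the difference of Klrk1 became -0.11. Without Mt2 replicate 2, 2 genes were called as well, Prf1 and Klrb1c.

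From con to Ht, 7 of the 8 genes were called higher, all but Gzma, against 25.8% of all genes called higher and 24.1% called lower. The median log2 fold change was 3.51, also with Xcl1 at its bound, against 0.09 for all genes. It was 3.14 for the 4 leukocyte markers, all called higher, so that a rise of this size was not particular to the 8 genes. Over the markers of single immune cell types the medians ran from 0.80 (dendritic cells) to 5.01 (monocytes). This comparison shares its con samples with that of con to Lt. The 7 genes were called under every other scaling, tool and choice of samples tried, apart from Nkg7 as given above. With scaling by total counts the median of all genes moved to 1.27, so that under that scaling a difference is to be read against this median and not against 0.

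**Figure D3:**
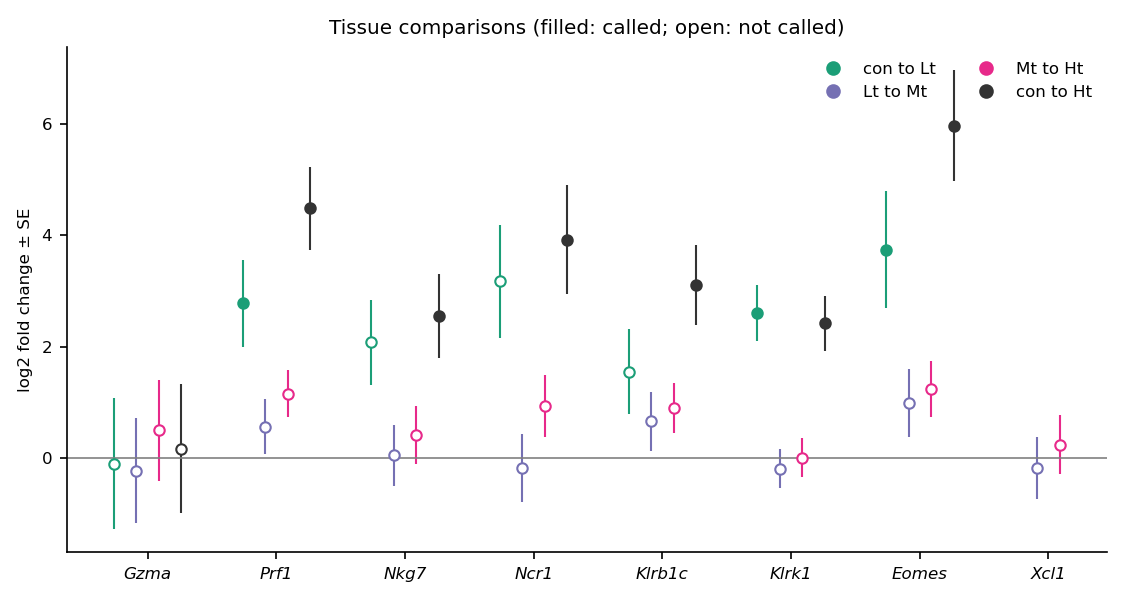
Log2 fold change (y axis) of each of the 8 genes in 4 tissue comparisons, with bars of ± 1 SE from edgeR. Filled points were called and open points were not; Xcl1 is left out where con, with 0 counts, is the reference. The 6 values drawn for con to Ht above 2 are filled, and no point of Lt to Mt or Mt to Ht is.

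Relative to Ptprc, the 8 genes followed different courses. The ratio of Eomes CPM to Ptprc CPM went from 1.90% and 0% in con to 2.09% and 4.51% in Lt, 3.27% to 7.17% in Mt and 9.88% and 12.9% in Ht. Prf1 gave 1.63% and 1.90% in con against 5.85% and 5.95% in Ht. For both genes the Ht samples lay above all others. The ratio of Klrk1 went the other way among CRLM groups, from 14.6% and 16% in Lt to 7.24% and 9.07% in Ht, with no overlap, and con lay at 8.10% and 15.4%. Nkg7 lay between 4.66% and 8.43% in all CRLM libraries, inside the 4.07% and 10.0% of con. Klrb1c gave 2.86% and 3.25% in con, 1.71% and 2.14% in Lt and 3.38% and 4.17% in Ht. Ncr1 gave 0.952% and 1.63% in con against 2.20% and 3.28% in Ht. Xcl1 gave 0% in con against 1.80% and 2.18% in Ht, and Gzma 4.07% and 57.1% against 5.11% and 7.45%. These ratios have no test.

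Per length, in FPKM (the CPM divided by the deposited gene length in kilobases), the order of the 8 genes in Ht ran from Nkg7 (7.22 ± 1.47, SD, n = 2) and Gzma (6.11 ± 0.575), whose difference is within their spread, through Xcl1 (3.76 ± 0.134), Eomes (2.70 ± 0.0391) and Prf1 (2.29 ± 0.37) to Ncr1 (1.74 ± 0.192), Klrb1c (1.26 ± 0.0291) and Klrk1 (1.15 ± 0.376). Klrb1c and Klrk1 were within their spread of each other too. On the same scale Ptprc lay at 4.81 and 6.14 FPKM.

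The genes whose log2(CPM + 1) ran most like each of the 8 over the 13 tissue samples were in part lymphocyte genes. For Nkg7 they were Lck, a kinase of the T-cell receptor (r = 0.98), Gzmb, granzyme B (0.98), and Sp140 (0.98). For Xcl1 they were Il2ra (0.99), a receptor chain for interleukin 2, Ms4a4b (0.98) and Gm12185 (0.98), and for Gzma they were Vps29 (0.92), Cd3e (0.89) and Gm44175 (0.88). Klrk1 ran most like Gbp5 (0.97), an interferon-induced GTPase, Ly6c2 (0.97), a monocyte surface protein, and Plac8 (0.96). Prf1 ran most like Matr3 (0.99), Cntln (0.98) and Zfp217 (0.98), and Eomes like Wnt10a (0.99), Vav3 (0.99) and Efna5 (0.99). Ncr1 ran most like B3gnt8 (0.95), Clec2i (0.95) and Ctsw (0.94), and Klrb1c like Cd84 (0.97), Prf1 (0.97) and Gm14139 (0.97). The samples share the course of tumor content, so that these are descriptions over 13 points. Across the same samples the correlation with Ptprc was 0.83 to 0.94 for 7 of the genes and 0.49 for Gzma, whose correlation with Cd3e was 0.89.

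Other genes of the cytotoxic pathway gave the following counts. Of the 13 granule and effector genes tested out of 14 listed, 8 were higher in Ht than in con and 0 lower, against 25.8% and 24.1% of all genes, with a median log2 fold change of 2.95. Among them were Gzmc and Gzmf, granzymes C and F, which had 0 counts in con. Gzmd, Gzme and Gzmf had enough counts to be tested only through Ht, so that no call of theirs adds support to this count. Gzmc, with 617 counts over Ht, was at least 58.4-fold higher and Gzmf, with 38, at least 3.6-fold higher. Gzmc also rose from Mt to Ht, by 2.72 ± 0.64 (adjusted p = 0.0228). Called higher in that step too were Gzmd, Gzme and Gzmf. Because these could be tested only through Ht, the calls of the list are not set against the 1.5% of all genes. Those last 3 had at most 2 counts in any Mt library. Of their 57, 42 and 38 counts over Ht, 51, 36 and 30 fell in a single Ht sample. Granzymes C to F are close copies of each other, so that their counts are uncertain. From con to Lt only Srgn, serglycin, the proteoglycan core of the granules, was called (1.64 ± 0.32), 1 of 13 against 12.4% of all genes. Of these 13, Gzmd, Gzme and Gzmf had 0 counts in con and in Lt and could not be called.

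Of the 30 NK surface receptors, 23 were higher in Ht than in con and 1 was lower, against 25.8% and 24.1% of all genes, and 6 were already higher in Lt, against 12.4% of all genes. Among the 23 higher in Ht were Klra4 and Klra7, of the Ly49 family, each with 0 counts in con. Klra4 was at least 76.3-fold higher in Lt and at least 257-fold higher in Ht, and Klra7 at least 17.2-fold higher in Ht. The Ly49 genes are close copies of one another, so that the split of reads among them is uncertain. Il12rb2, a chain of the interleukin 12 receptor, was also at 0 in con and called higher in Lt, by at least 4.24-fold. The receptor that was lower was S1pr5, a sphingosine phosphate receptor, which fell from con to Ht (log2 fold change -5.66, 10.9 to 0.200 CPM) and from Mt to Ht (-3.24).

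Of the 11 transcription factors, 6 were higher and 3 lower in Ht than in con, against 25.8% and 24.1% of all genes. Runx3 rose from con to Lt by 2.82 ± 0.53 and to Ht by 4.20 ± 0.53 (0.729 to 13.5 CPM; adjusted p = 0.000248), and Gata3 rose to Ht from 3 counts in con, a ratio of 14.9 (4.99 to 72.8). Id2 and Nfil3, needed for NK development and also expressed by hepatocytes, fell from con to Ht (-2.80 and -2.66) and from Mt to Ht (-2.28 and -1.69). Over these steps the 8 hepatocyte markers fell too, from a sum of 154379 to 181303 CPM in con to 2704 to 3913 CPM in Ht, with none at 0. The part of hepatocytes in the fall of Id2 and Nfil3, or of the other genes named here as lower in Ht than in con, was not tested.

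Of the 15 signaling genes, 11 were higher and 1 lower in Ht than in con, against 25.8% and 24.1% of all genes. Sh2d1b1, the adapter EAT-2, had 2 counts in con and 429 in Ht, a ratio of 60.9 (16.8 to 505), and Txk, a kinase, had 1 and 142, a ratio of 40.3 (7.12 to 1604). Zap70, a kinase of lymphocyte receptors, fell (-1.82). Among 4 of 8 cytokine genes tested, Il15, a growth factor of NK cells, rose to Lt by 2.37 ± 0.42 and to Ht by 3.38 ± 0.42, whereas Il15ra and Il18 fell to Ht (-2.20 and -1.30).

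Of 9 ligands and receptor partners tested out of 11, 2 were higher and 4 lower in Ht than in con, against 25.8% and 24.1% of all genes. The NKG2D ligand Ulbp1 rose to Lt by 3.24 ± 0.40 and to Ht by 5.04 ± 0.41 (1.07 to 35.4 CPM), while Raet1d and Raet1e, ligands of the same receptor, fell to Ht (-5.18 and -4.86), from 51.2 to 1.43 CPM and from 17.3 to 0.613 CPM. Cd48, the ligand of the NK receptor 2B4, rose to Ht by 2.62 ± 0.41. From con to Ht the ligands of NKG2D thus went in opposite directions. Klrk1, the gene of NKG2D, rose over that comparison (2.42) and stayed level from Lt to Ht. The 8 hepatocyte markers fell from con to Ht as well, with a median of -5.85. The part of hepatocytes in the fall of Raet1d and Raet1e was not tested. Of the 14 T-cell markers 6 were higher in Ht than in con, among them Ctla4, with 2 counts in con (a ratio of 8.66, 2.30 to 73.1), and Trac (2.91 ± 0.70). Their sum was 4.63 to 17.6 CPM in con, 14.3 to 46.5 CPM in Lt, 28.0 to 50.3 CPM in Mt and 30.2 to 47.2 CPM in Ht, and the part of T cells in the levels of the 8 genes was not tested.

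In the sorted cells, taken with microbeads for F4/80 and for CD11b, reads fell on all 8 genes. Klrk1 stood apart. It lay at 27.3, 41.1 and 31.9 CPM in F4/80+ cells and at 29.3, 17.4 and 57.1 CPM in CD11b+ cells, from 368 to 868 counts. The other genes were near or below 6 CPM in all 6 libraries, with the highest value that of Nkg7, 6.32 CPM in CD11b+ replicate 3. Ncr1 had 13, 2 and 13 counts in F4/80+ cells and 14, 11 and 8 in CD11b+ cells, and Xcl1 had 8, 8 and 6 and 24, 4 and 18. Of these, only Ncr1 in F4/80+ replicate 2 had fewer than 3 counts.

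Against Mt2 tissue, on a scale shared by all 19 samples, Klrk1 was the only gene of the 8 that was higher in the sorted cells. Its mean went from 8.41 CPM in Mt2 to 30.9 CPM in F4/80+ cells (1.87 ± 0.47, adjusted p = 0.00397) and to 30.7 CPM in CD11b+ cells (1.86 ± 0.47, adjusted p = 0.00394), with no overlap in either. Of all 18407 genes tested, 17.2% were called higher and 25.2% lower in F4/80+ cells, and 17.6% and 26.3% in CD11b+ cells. Among the 8 genes 1 was called higher and 2 lower in F4/80+ cells, and 1 and 1 in CD11b+ cells, shares near or below those. The groups did not overlap for 71.5% and 65% of all genes. Eomes was lower in both, from 6.16 CPM to 1.38 CPM in F4/80+ cells (-2.16 ± 0.60, adjusted p = 0.00731) and to 0.612 CPM in CD11b+ cells (-3.30 ± 0.64, adjusted p = 0.000507). Xcl1 was lower in F4/80+ cells (-2.42 ± 0.72, adjusted p = 0.012), at 0.364 CPM against 1.96 CPM, and not called in CD11b+ cells (-1.35 ± 0.68). Both calls of a lower level in F4/80+ cells were lost without Mt2 replicate 2, where Eomes gave -1.78 (adjusted p = 0.0571) and Xcl1 -2.04 (adjusted p = 0.0779). These 2 comparisons share the Mt2 samples. The tissue libraries had 348 to 1421 counts of the Y-linked gene Ddx3y and the sorted libraries 0, so that the sex of the mice and the sort cannot be told apart here. The other 5 genes had differences from -1.69 to -0.20 and were not called.

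Ptprc itself was higher in the sorted cells, by 2.39 ± 0.37 in F4/80+ and 2.25 ± 0.37 in CD11b+ cells. As a share of Ptprc CPM, Klrk1 gave 6.11% to 7.41% in F4/80+ cells and 3.78% to 11.6% in CD11b+ cells, against 9.24% and 10.1% in Mt2. The other 7 genes gave at most 1.34% in any sorted library, whereas Nkg7 and Eomes gave 5.42% to 7.17% in Mt2. The ratio of Klrk1 in F4/80+ cells was below that of both Mt2 libraries, and 2 of the 6 sorted libraries lay within its range over tissue. Per length, Klrk1 had the lowest mean of the 8 in Ht, within its spread of Klrb1c. In F4/80+ cells it had the highest mean (4.65 ± 0.977 FPKM, SD, n = 3) next to Nkg7 (4.27 ± 2.28), from which it did not differ beyond the spread.

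**Figure D4:**
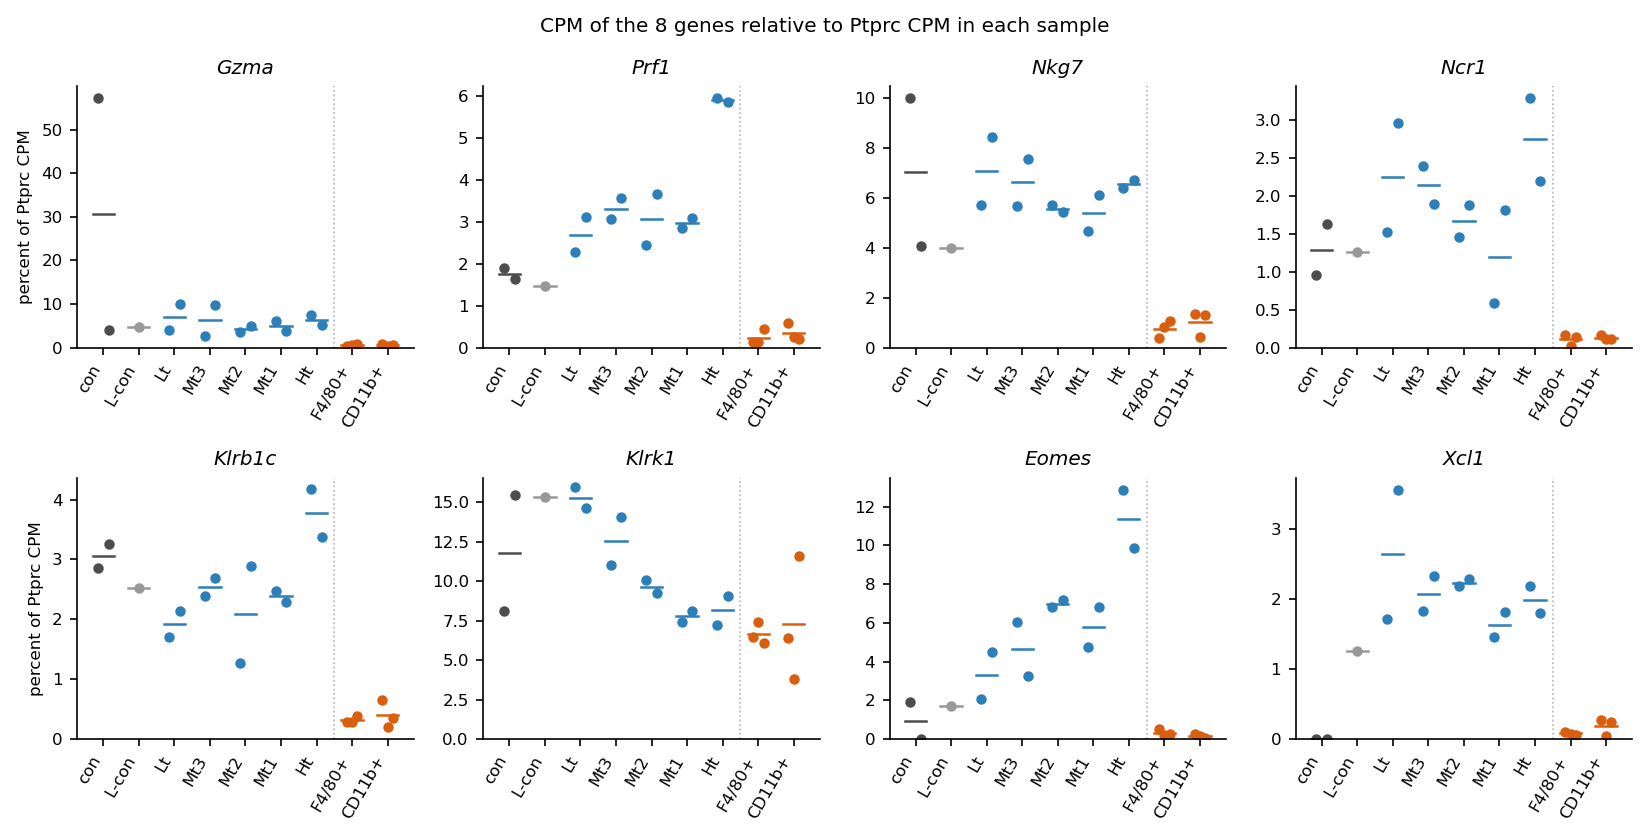
CPM of each of the 8 genes as a percentage of Ptprc CPM in the same sample (y axis, a scale of its own in each panel) by group (x axis), with a point per sample and a bar at the group mean. Eomes and Prf1 are highest in Ht, and in the sorted cells, right of the dotted line, every gene but Klrk1 is at 1.34% or less. The con values rest on few counts, apart from those of Gzma in con replicate 1.

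The T-cell markers were in the sorted libraries as well, at a sum of 30.2 to 53.2 CPM in F4/80+ cells and 26.5 to 58.3 CPM in CD11b+ cells, with none of the 14 at 0. Cd3e had 13, 38 and 41 counts in F4/80+ cells and 45, 8 and 14 in CD11b+ cells. The part of lymphocytes in the levels of the 8 genes, whether held by the beads or carried over, was not tested. Hcst and Tyrobp, whose products DAP10 and DAP12 carry the signal of NKG2D and of other receptors, were higher than in Mt2 in F4/80+ cells (1.69 ± 0.38 and 2.78 ± 0.45) and in CD11b+ cells (2.55 ± 0.39 and 3.34 ± 0.46); they were picked from the signaling list after their values were seen.

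Of the 13 effector genes tested, 3 were higher and 1 lower in F4/80+ cells than in Mt2, against 17.2% and 25.2% of all genes, led by Unc13d (3.10 ± 0.34) and Srgn (3.08 ± 0.32), which serve granule release in myeloid cells too, and Gzmc was lower (-3.09 ± 1.01). In CD11b+ cells 3 were higher and 0 lower. Gzmd and Gzme had 0 counts in Mt2 and in F4/80+ cells, and Gzme also in CD11b+ cells, so that they could not be called there. Of the 30 surface receptors, 4 were higher and 7 lower in F4/80+ cells and 5 were higher and 5 lower in CD11b+ cells, shares near or below those of all genes (17.2% and 25.2%, and 17.6% and 26.3%). Fcgr3, an Fc receptor of NK and myeloid cells, and Cd244a, the receptor 2B4, led the rise (3.66 ± 0.39 and 3.04 ± 0.39 in F4/80+ cells), and Itga2 and Itga1, integrins used to tell NK subsets apart, the fall (-3.44 ± 0.64 and -3.37 ± 0.27). Of the 11 transcription factors, 3 were higher, led by Runx3 (3.86 ± 0.41, from 7.92 to 116 CPM) and Prdm1 (2.87 ± 0.42), and 2 lower, Tox and Ets1. In CD11b+ cells 3 were higher and 3 lower, and Runx3 reached 97.5 CPM.

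**Figure D5:**
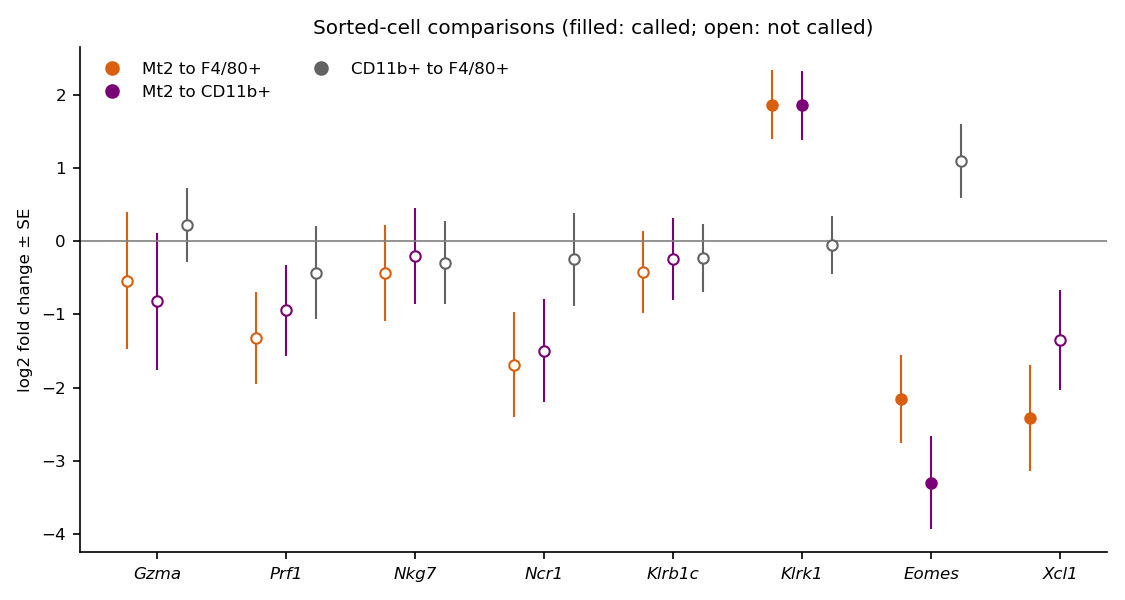
Log2 fold change (y axis) of each of the 8 genes from Mt2 tissue to F4/80+ cells and to CD11b+ cells and from CD11b+ to F4/80+ cells, with bars of ± 1 SE from edgeR; filled points were called. Klrk1 is the only gene with filled points above 0 (1.87 and 1.86), and Eomes and Xcl1 hold those below; Xcl1 had too few counts to be tested between the sorted populations.

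Between the sorted populations 0 of the 7 genes tested were called by edgeR, with 0 at an unadjusted p under 0.05 and 0 called by DESeq2. In that comparison 0.0771% of all genes were called, with 1503 at an unadjusted p under 0.05 and 300 called by DESeq2. Klrk1 differed by -0.05 ± 0.40 from CD11b+ to F4/80+ cells, and its 3 libraries overlapped. Eomes had the largest difference, 1.10 ± 0.51 (adjusted p = 0.476), with 38, 20 and 25 counts in F4/80+ cells against 21, 13 and 5 in CD11b+ cells. Klrd1, which encodes CD94, the partner of inhibitory NKG2A, and was picked from the receptor list after its values were seen, did not overlap between the populations: it lay at 0.604, 3.28 and 1.49 CPM in F4/80+ cells and at 11.5, 10.2 and 27.6 CPM in CD11b+ cells. It was not called (-3.18 ± 0.62, adjusted p = 0.102), and 7 of the 21 receptors tested and 23.3% of all genes did not overlap there either. The neutrophil markers summed to 167 to 464 CPM in F4/80+ cells and to 1062 to 3938 CPM in CD11b+ cells. The dendritic-cell markers summed to 19.3 to 37.0 CPM and to 73.3 to 175 CPM, while the sums of the T-cell markers overlapped. The part of the cell types in the level of Klrd1 was not tested.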

How the data were processed

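Gene-level read counts of 14 tissue and 6 sorted-cell libraries were analysed. The authors deposited raw counts per gene, made by the submitters' processing notes with CASAVA, HISAT2 2.0.5 and featureCounts 1.5.0-p3 on GRCm38; the strand setting is not given in the sources used here. The sorted table holds no gene names and was joined by Ensembl ID. The 8 genes and the gene lists were chosen with earlier results of these data known. Genes with enough counts (edgeR's filterByExpr) were TMM-normalized and tested with the quasi-likelihood test of edgeR 4.0.16 (R 4.3.3): 17187 genes over the 13 tissue samples, 14263 over the sorted libraries, without Xcl1, and 18407 over all 19 samples for Mt2 against sorted cells. Mt pools Mt1, Mt2 and Mt3. P-values were adjusted by the Benjamini-Hochberg method over all genes tested, with calls at an adjusted p up to 0.05 and a log2 fold change of 1 or more in size. The methods state 2 livers per tissue group and call the replicates biological. For the sorted libraries nothing says whether they came from separate mice, so their p-values measure the spread between samples, which may be technical. Ht replicates 1 and 3 differed by more than sampling noise (chi-square per degree of freedom 27.6, against 26.7 and 12.1 for the other Ht pairs), and were summed as the methods call them identical. L-con is 1 library and entered no comparison. Totals of 16032085 to 20548370 counts per library set the precision, and counting intervals are exact 95% intervals that cover counting error only. Likeness is Pearson's r of log2(CPM + 1). For each list the named genes were the called genes with the largest absolute change, up to 2 in each direction, except where stated; Cd3e, Alb and Ptprc were reference genes. Promoters come from RefSeq on GRCm38.p6, and all 8 gene spans equal GENCODE vM21. Alternatives were DESeq2 1.42.0, other size factors, total-count scaling, no filter, fewer or more groups, a replicate block and leaving out each replicate. Scripts were tested on simulated data. Xist had 0 to 3 counts in tissue and 5547 to 21805 in sorted libraries, and Ddx3y 348 to 1421 and 0, so that tissue and sorted cells differ in sex.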

Additional observations from a re-analysis of the deposited data

Results flagged for a closer look

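The library of tumor-free liver from a 12 dpi mouse (L-con), which entered no comparison, had more RNA of 6 of the 8 genes than either con library, as held for 36% of all genes tested. Klrk1 lay at 6.01 CPM (73 counts) against at most 1.57 CPM in con. Klrb1c lay at 0.988 CPM (12 counts) against at most 0.531 CPM, Eomes at 0.659 CPM (8 counts) and Prf1 at 0.576 CPM (7 counts), each against at most 0.354 CPM. Ncr1 and Xcl1 lay at 0.494 CPM each (6 counts), against at most 0.177 CPM and 0 CPM. Ptprc was higher in this library as well, at 39.2 CPM against 10.2 and 18.6 CPM, and its part in these levels was not tested. With 1 library, the difference was not tested.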

How the results depend on the processing

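Among the 8 genes, the count called from con to Lt was 4, and it was 6 with DESeq2, 6 without a filter, 3 with total-count scaling, 2 with RLE size factors, 1 with only the groups compared in the fit, and from 0 to 6 when each replicate was left out. From Lt to Mt it was 0, and 1 without a filter. From Mt to Ht it was 0, and 1 with DESeq2, 2 with total-count scaling, 2 without a filter, 1 with only the groups compared, 2 with Ht as 3 libraries, and 0 to 2 when each replicate was left out. From Mt2 to F4/80+ it was 3, and 5 without a filter and 1 to 4 when each replicate was left out. The counts from con to Ht, from Mt2 to CD11b+ cells and between the sorted populations stayed within 1.5 times under all alternatives. The cause was not tested in any of these.

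A replicate block gave 5 calls from con to Lt and 1 from Mt to Ht, and changed none of the other counts among the 8 genes. Nothing in the labels says that the numbers mark pairs, and the deviations of same-numbered samples did not go together in every comparison: they correlated at -0.15 from con to Lt, 0.58 from Lt to Mt and -0.39 from Mt to Ht. What same-numbered samples of Lt and Mt share was not tested. With con numbers exchanged 6 genes were called from con to Lt, and with Ht numbers exchanged 1 from Mt to Ht, both chosen after seeing the data.

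Small differences changed sign. With total-count scaling, Gzma gave 0.30 from con to Lt, and from Lt to Mt Gzma gave 0.058, Ncr1 0.14, Klrk1 0.13 and Xcl1 0.12. Gzma gave 0.049 from con to Lt with the exchanged block. Klrk1 gave -0.011 from Mt to Ht with only the groups compared and -0.11 with Ht as 3 libraries, and between the sorted populations 0.11 with total-count scaling, 0.089 with the replicate block and 0.011 with all 9 groups. Leaving out each replicate gave, from con, Gzma -1.86 to 3.59 in Lt and -0.79 to 3.88 in Ht. From Lt to Mt it gave Gzma -0.97 to 1.53, Prf1 -0.012 to 1.62, Nkg7 -0.55 to 1.2, Ncr1 -0.86 to 1.28, Klrk1 -0.61 to 0.45 and Xcl1 -0.87 to 1.36, and from Mt to Ht Klrk1 -0.37 to 0.31. From CD11b+ to F4/80+ cells it gave Gzma -0.11 to 0.60, Prf1 -1.33 to 0.15, Nkg7 -0.67 to 0.088, Ncr1 -0.57 to 0.24, Klrb1c -0.56 to 0.29 and Klrk1 -0.37 to 0.52. From Mt2 it gave Gzma -0.95 to 0.11 and Klrb1c -1.01 to 0.74 in F4/80+ cells, and Nkg7 -0.43 to 0.21 and Klrb1c -0.83 to 0.91 in CD11b+ cells.

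Over all genes, total-count scaling moved the medians from 0.10 to 0.40 (con to Lt), -0.02 to 0.33 (Lt to Mt), 0.00 to 0.55 (Mt to Ht) and 0.09 to 1.27 (con to Ht), and the share of calls that were higher from 10.0% to 59.3% (Mt to Ht) and from 51.7% to 79.7% (con to Ht). Calls from Lt to Mt were 0, and 242 with DESeq2 and 887 without a filter. Calls from Mt to Ht were 2563, and 4358 with total-count scaling and 0 without Ht replicate 1 or Ht replicate 2. Calls between the sorted populations were 11, and 300 with DESeq2, 242 without a filter, 169 with all 9 groups and 78 with the replicate block. Libraries of con with 3 counts or fewer limit Prf1, Ncr1, Eomes and Xcl1.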
